A study of Mus musculus with 10 samples.

Results

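Btg4 and 9 further genes of cytoplasmic deadenylation were followed in single mouse oocytes at metaphase II (MII), where the mature egg is arrested until a sperm enters. The 10 genes, chosen by name and out of 35501 genes summed from the deposited transcripts, were Btg4, Cnot1, Cnot2, Cnot3, Cnot6, Cnot6l, Cnot7, Cnot8, Pan2 and Zfp36l2. There were 5 libraries of oocytes that matured with TubA (0.1 µg/mL, 16 h) and 5 libraries labelled control. All came from ICR mice aged 6 to 8 weeks, with no transgene or mutation given, and from oocytes with an intact germinal vesicle that were matured in M16 medium for 16 h at 37 °C in 5% CO2. The labels give only the short name TubA, which usually stands for tubastatin A, a compound that blocks the tubulin deacetylase HDAC6. The labels do not say whether control oocytes received a vehicle. The question was which oocyte transcripts differ after maturation with TubA.

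Each library was 1 cell amplified by Smart-seq2, a protocol that copies polyadenylated RNA from end to end. The values are TPM, an abundance per transcript length that sums to the same total in every library. Sequencing depth cannot be read from TPM and is unknown here, so intervals rest on the spread between libraries and not on counting. The labels name no animal or culture, so n counts oocyte libraries. A p-value then speaks only of the spread among these oocytes, part of which may be technical. Between 10714 and 11698 genes reached 1 TPM in TubA libraries, and between 10521 and 11677 in control libraries. The summed TPM of 5 oocyte markers (Gdf9, Bmp15, Zp3, Mos and Oosp1) ran from 14447 to 18643 with TubA and from 10465 to 18021 in control. The summed TPM of 10 cumulus and granulosa cell markers ran from 9.81 to 19.1 with TubA and from 8.30 to 14.4 in control. Most of it came from Cyp19a1 (7.78 to 18.0 TPM with TubA and 6.59 to 13.1 TPM in control). Amh and Foxl2 were listed at 0 in every library. The remaining markers were low but not all absent, with Has2 up to 1.51, Inha up to 1.31, Ptx3 up to 1.03 and Fshr up to 0.863 TPM. The part of such cells in the results was not tested. By clustering of their expression values the libraries fell into 2 sets that cut across treatment. TubA replicates 1 and 2 clustered with control replicates 1 to 3, and TubA replicates 3 to 5 clustered with control replicates 4 and 5.

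Deadenylation, the shortening of the poly(A) tail, is the step that commits most messenger RNAs to decay. The CCR4-NOT complex carries it out with a pair of nucleases, one of the CAF1 type (CNOT7 or CNOT8) and one of the CCR4 type (CNOT6 or CNOT6L), held on the scaffold CNOT1 together with CNOT2 and CNOT3. The complex does not choose its targets, and adaptors bring it to them. BTG4 is the adaptor of the maturing oocyte: it binds the CAF1 type nuclease, and in mice without it maternal messages persist and embryos stop at the first cleavage. ZFP36L2 is a zinc finger protein that brings the complex to AU-rich elements. PAN2 is the nuclease of a separate complex that trims long tails. Since an oocyte at this stage makes almost no new RNA, its messages are controlled through their tails, and elements of the 3′ end, the cytoplasmic polyadenylation elements, mark those whose tail is lengthened during maturation.

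The 3′ ends of 7 member transcripts are shown here to place the matches to such elements beside the measured levels. They are the main coding forms of Btg4, Cnot7, Cnot8, Cnot3 and Pan2 and the 2 forms of Cnot6l that differ in their end. Each stretch is the run of 30 bases, within the last 150, that held the most kinds and copies of the elements searched for, taken from the GENCODE M21 transcripts of GRCm38 and read 5′ to 3′ with U as T. Capitals mark every copy of TTTTAT or TTTTAAT (cytoplasmic polyadenylation elements), AATAAA or ATTAAA (poly(A) signals) and TATTTAT (an AU-rich element).
Btg4-201: gtaaccagtctaTTTTATaaatctgttaaa
Cnot7-203: aaagcttttgtaAATAAAggcttcaaaaat
Cnot8-201: tTATTTATgtTTTTAATtttgtaaAATAAA
Cnot6l-201: aatgtgatatTTTTAATAAAcaagaaattt
Cnot6l-210: ttccctgtaggcAATAAAtggccattttgc
Cnot3-201: aaaaTATTTATgAATAAAtagTTTTATatg
Pan2-201: atgTTTTATaaAATAAAagtatTTTTATct
Btg4-201 held 2 copies of TTTTAT, which started 116 and 67 bases before its end, and neither AATAAA nor ATTAAA. In Cnot6l-201 the TTTTAAT and the AATAAA overlap. On the transcribed strand, 13.3% of the 112835 annotated transcripts of at least 150 bases held TTTTAT or TTTTAAT in their last 150 bases, 39.6% held AATAAA or ATTAAA, and 3.23% held TATTTAT. Over the 57575 protein-coding ones among them the shares were 16.7%, 54.8% and 4.3%. Of the 32 member transcripts with a mean of at least 1 TPM, 10 held at least 1 of the first pair there, and forms of 1 gene can share an end. The other 22 held none, among them Cnot7-203, Cnot7-204, Cnot7-206, Cnot6l-210, Cnot2-213, Cnot2-202, Cnot6-201 and Zfp36l2-201. These are matches of letters in an annotated end and say nothing of whether a protein binds there. The annotated 3′ end of Cnot8-201 is marked as not found, so its last bases may not be the true end.

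The adaptor Btg4 (ENSMUSG00000032056, GRCm38 chr9:51060901-51119875, plus strand) ranked 7 of the 35501 genes by mean TPM. It stood at 7499.95, 11274, 13057, 7724 and 10305 TPM in TubA replicates 1 to 5. In control replicates 1 to 5 it stood at 13679, 9835, 8349, 8707 and 11092 TPM. The groups overlapped over most of their range, with the lowest oocyte in the TubA group and the highest in the control group. The means were 9972 ± 2371 TPM with TubA and 10332.5 ± 2156 TPM in control (SD, n = 5 in each group, here and below), and Btg4 alone made up 0.997 ± 0.237% of the TPM of TubA libraries and 1.03 ± 0.216% of that of control libraries. The difference on the log2(TPM + 1) scale, TubA minus control, was -0.061 with a 95% interval from -0.47 to 0.35 (limma, unadjusted p = 0.75, adjusted p = 0.9999 over all 11664 genes tested). Nearly all of it was Btg4-201, an mRNA of 1486 bases with 250 codons, which held 99.0 ± 0.147% of the gene's TPM with TubA and 99.1 ± 0.0842% in control. The shorter Btg4-202, with another last exon and 191 codons, stood at 98.0 ± 19.2 TPM with TubA and 96.0 ± 17.1 TPM in control.

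**Figure D1:**
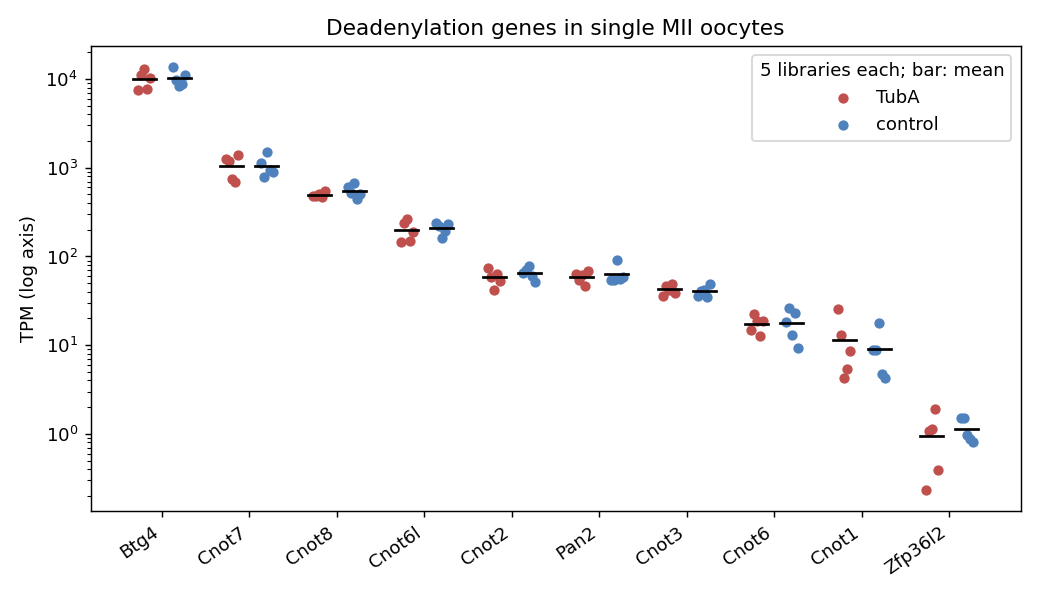
TPM of each of the 10 genes in every library on a log axis, genes in order of mean level, TubA left of control; points are single-oocyte libraries and bars are means (n = 5 each). The 2 groups overlap for every gene, and Btg4 lies above every other gene in all 10 libraries.

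Summed over all its annotated transcripts, Cnot7 was the highest of the nucleases and ranked 126 of all genes. Over coding transcripts alone Cnot8 was above it in 9 of 10 libraries. Cnot7 (ENSMUSG00000031601, chr8:40492540-40515847, minus strand) encodes an enzyme of the CAF1 type, the type that BTG4 binds. Its TPM was 1264, 1189.6, 744, 693 and 1377 in TubA replicates 1 to 5, against 1132, 793, 1519.6, 934 and 894 in control replicates 1 to 5. High and low oocytes occurred in both groups, and the control range reached above and the TubA range below the other. The means were 1053 ± 314 TPM with TubA and 1055 ± 288 TPM in control, a log2 difference of -0.019 with a 95% interval from -0.54 to 0.50 (limma, unadjusted p = 0.94). Its sign depended on the libraries: within the set of TubA replicates 1 and 2 and control replicates 1 to 3 it was 0.14, and within the other set -0.035.

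Cnot8, the paralogous CAF1 type nuclease (ENSMUSG00000020515, chr11:58104153-58118594, plus strand), was the steadiest of the nucleases in TubA oocytes. It stood at 478, 486, 502, 469 and 545 TPM in TubA replicates 1 to 5, against 601, 524, 679.6, 446 and 511 TPM in control replicates 1 to 5. The TubA values all lay within the control range. The means were 496 ± 30.1 TPM with TubA and 552 ± 90.1 TPM in control, and the log2 difference was -0.14 with a 95% interval from -0.46 to 0.18 (limma, unadjusted p = 0.36). It was -0.31 within the set that holds TubA replicates 1 and 2 and 0.080 within the other. Of the gene's sequence words of 31 bases, 12.5% also occur in the pseudogene Gm18860, which itself averaged 1.71 TPM.

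Cnot6l, the main CCR4 type nuclease of mouse oocytes (ENSMUSG00000034724, chr5:96070333-96164171, minus strand), stood at 145, 239.9, 262, 151 and 189.8 TPM in TubA replicates 1 to 5. In control replicates 1 to 5 it stood at 236, 222, 162, 192 and 232 TPM. The TubA oocytes were the more spread out and held both the lowest and the highest value. The means were 198 ± 52.2 TPM with TubA and 209 ± 31.3 TPM in control, a log2 difference of -0.11 with a 95% interval from -0.55 to 0.34 (limma, unadjusted p = 0.61). Most of this TPM lay on an entry annotated as not translated to full length, described below. Coding transcripts alone stood at 24.0 ± 6.69 TPM with TubA and 32.7 ± 13.2 TPM in control, a log2 difference of -0.40 (limma, adjusted p = 0.9999). Control replicate 3 weighed on this difference. Its coding transcripts stood at 55.2 TPM, of which 44.9 TPM was the form Cnot6l-203, against 23.3 to 33.1 TPM in the other control replicates.

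Its paralogue Cnot6 (ENSMUSG00000020362, chr11:49671503-49712723, minus strand) was lower in every library. It had 14.8, 22.7, 18.9, 12.7 and 18.6 TPM in TubA replicates 1 to 5, against 18.1, 26.0, 12.9, 22.9 and 9.19 TPM in control replicates 1 to 5. Here the control group held both extremes. The log2 difference was 0.040 with a 95% interval from -0.60 to 0.68 (limma, unadjusted p = 0.89).

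Because each nuclease pair competes for the same place in the complex, the balance between paralogues was compared within each library. Scaling to a total has no effect on a plain ratio. The log2 ratios tested add 1 TPM to each gene first, so they are not wholly free of it. Summed over all transcripts, Cnot6l exceeded Cnot6 in 10 of 10 libraries, 11.3 ± 1.64 times with TubA and 13.6 ± 6.87 times in control. The wide spread of the control ratio came with control replicate 5, at 25.2, where Cnot6 was at its lowest. Cnot7 exceeded Cnot8 in 10 of 10 libraries on the same sums, 2.11 ± 0.584 times with TubA and 1.90 ± 0.284 times in control. Btg4 exceeded Cnot7 in 10 of 10 libraries as well, 10.3 ± 4.50 times with TubA and 10.3 ± 3.001 times in control. On the log2 scale the group differences of these 3 ratios, TubA minus control, were -0.15, 0.12 and -0.041 (exact two-sided permutation p = 0.71, 0.60 and 0.88). The adjusted p was 0.88 for each of the 3. The balance itself was quite another over coding transcripts alone, a comparison chosen after seeing the data. Cnot6l then exceeded Cnot6 1.43 ± 0.310 times with TubA and 2.19 ± 1.39 times in control. The control ratio was 1.02 in replicate 4 and 4.28 in replicate 3. Cnot7 stood at 0.914 ± 0.144 times the level of Cnot8 with TubA and at 0.914 ± 0.0675 times in control, above Cnot8 in 1 of 10 libraries. Btg4 exceeded Cnot7 22.2 ± 5.06 times with TubA and 20.7 ± 3.84 times in control. The log2 differences of these coding ratios were -0.40, -0.014 and 0.094 (exact two-sided permutation p = 0.35, 0.99 and 0.64, not adjusted).

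The non-catalytic subunits were lower than Cnot7 and Cnot8 in every library. Over coding transcripts alone Cnot2 (mean 59.6 TPM over all libraries) and Cnot3 (34.8 TPM) were above Cnot6l (28.3 TPM). The Cnot3 sum counts Cnot3-207, a partial entry of 639 bases whose end is marked as not found, at 12.7 TPM. Cnot3-201, with the whole reading frame, averaged 21.8 TPM. That is below the Cnot6l sum but above the coding form Cnot6l-210, at 18.6 TPM. Cnot2 (ENSMUSG00000020166, chr10:116485161-116581511, minus strand), which pairs with CNOT3 to stabilise the complex, had 73.4, 59.1, 41.9, 63.6 and 52.3 TPM in TubA replicates 1 to 5. In control replicates 1 to 5 it had 64.3, 71.2, 78.9, 60.0 and 51.1 TPM. Of the TubA oocytes 4 lay below the control median, but the ranges overlapped, and the log2 difference was -0.17 with a 95% interval from -0.61 to 0.27 (limma, unadjusted p = 0.41). Cnot3 (ENSMUSG00000035632, chr7:3645268-3661109, plus strand) had 35.9, 46.4, 42.0, 49.2 and 39.0 TPM in TubA replicates 1 to 5, against 36.2, 40.5, 41.8, 35.3 and 48.4 TPM in control replicates 1 to 5. It was the least variable of the 10 genes, with a coefficient of variation of 12.4% over all libraries. Its log2 difference was 0.070 with a 95% interval from -0.32 to 0.46 (limma, unadjusted p = 0.70). Its 3′ end overlaps the antisense gene Leng1, which was listed at a mean of 0.0884 TPM, and without a stated strand reads over the overlap, which holds 11.8% of the sequence words of Cnot3, cannot be assigned to 1 of them.

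Cnot1, the scaffold on which the complex is built (ENSMUSG00000036550, chr8:95719451-95807464, minus strand), was the most variable. It had 25.6, 12.9, 4.29, 5.41 and 8.51 TPM in TubA replicates 1 to 5, against 8.92, 8.76, 18.0, 4.74 and 4.30 TPM in control replicates 1 to 5. Every library of the set with TubA replicates 1 and 2 lay between 8.76 and 25.6 TPM and every library of the other between 4.29 and 8.51 TPM. The 2 ranges nearly met. The sets were themselves found from the same expression values, so this is a description only. The log2 difference was 0.22 with a 95% interval from -0.81 to 1.25 (limma, unadjusted p = 0.65). It was 0.65 within the first set and 0.31 within the second. The 2 highest entries were not full-length message. The retained-intron transcript Cnot1-207 averaged 6.10 ± 7.16 TPM with TubA and 4.44 ± 3.90 TPM in control. The partial coding transcript Cnot1-205 averaged 2.02 ± 1.99 TPM with TubA and 1.99 ± 1.98 TPM in control. Their part of the gene's TPM varied widely, from 0% to 70.0% for Cnot1-207 and from 0% to 32.5% for Cnot1-205. In TubA replicate 4 both were at 0, and other coding entries made up 4.18 of the 5.41 TPM. No other Cnot1 transcript reached a mean of 1 TPM.

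Among the remaining factors, Pan2 (ENSMUSG00000005682, chr10:128303335-128321358, plus strand) had 63.3, 54.2, 62.0, 46.5 and 68.3 TPM in TubA replicates 1 to 5. In control replicates 1 to 5 it had 54.4, 54.4, 90.8, 55.6 and 58.1 TPM. Control replicate 3 stood apart and the other libraries overlapped, and the log2 difference was -0.072 with a 95% interval from -0.51 to 0.36 (limma, unadjusted p = 0.73). The adaptor Zfp36l2 (ENSMUSG00000045817, chr17:84183931-84187947, minus strand) was close to the lowest level tested. It had 0.235, 1.07, 1.15, 1.93 and 0.395 TPM in TubA replicates 1 to 5, against 1.51, 1.499, 0.979, 0.870 and 0.810 TPM in control replicates 1 to 5. Both the lowest and the highest oocytes were treated ones, and the log2 difference was -0.18 with a 95% interval from -0.86 to 0.50 (limma, unadjusted p = 0.57). The log2(TPM + 1) scale understates the change of a gene this low.

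None of the 10 genes passed the test, 0 of 10 at an unadjusted p under 0.05, and in 0 of 10 did the groups not overlap. Over all 11664 genes tested, limma called 0.00857% at an adjusted p under 0.05 and 2.51% at an unadjusted p under 0.05, and the groups did not overlap in 0.454%. Thus a count of 0 in 10 is near the background. Of the 10 differences 3 were above 0 and 7 below, with a median of -0.066, against a median of 0.0097 over all genes tested. Of the 10 intervals 9 lay wholly within 1 log2 unit of 0 on the log2(TPM + 1) scale, the exception being Cnot1, against 57.0% of all genes tested. For Zfp36l2, near 1 TPM, that is no limit on the fold: with a pseudocount of 0.1 its difference was -0.46. A value that misses the threshold does not show that the groups are alike, and Smart-seq2 levels do not measure tail length or nuclease activity. As the protocol copies polyadenylated RNA, a level may depend in part on the tail as well as on abundance, which was not tested.

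**Figure D2:**
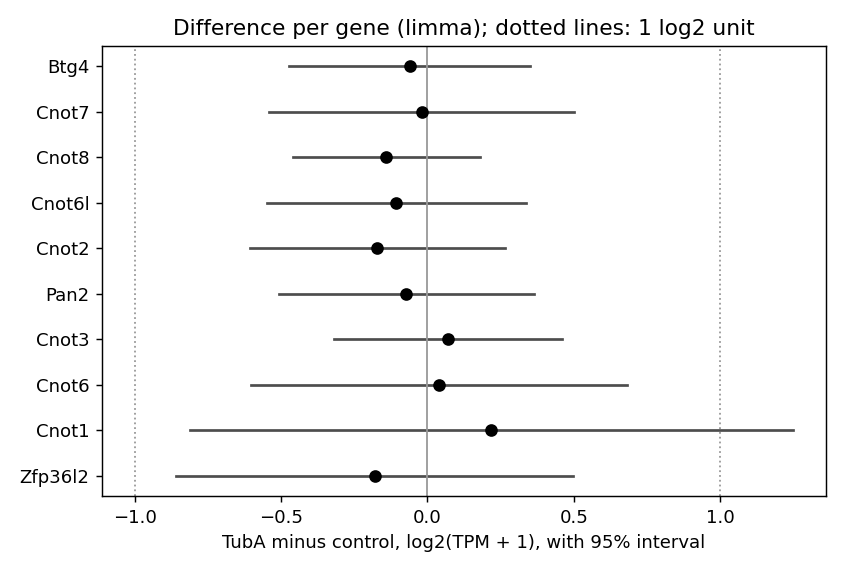
Difference of each gene between TubA and control libraries on the log2(TPM + 1) scale, with its 95% interval from limma (n = 5 each); dotted lines mark 1 log2 unit, which for the low Zfp36l2 is not a 2-fold change in TPM. Every interval contains 0, and only that of Cnot1, from -0.81 to 1.25, passes a dotted line.

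The order of levels was the same in both groups for genes whose ranges did not overlap. Summed over all transcripts, Btg4 exceeded Cnot7, Cnot7 exceeded Cnot8, Cnot8 exceeded Cnot6l and Cnot6l exceeded Cnot2 in 10 of 10 libraries, with ratios of mean TPM of 9.63, 2.01, 2.58 and 3.30. Cnot3 exceeded Cnot6 in 10 of 10 as well, with a ratio of 2.35. The ranges of 3 neighbouring pairs overlapped: Cnot2 exceeded Pan2 in 3 of 5 TubA libraries and 3 of 5 control libraries, Pan2 exceeded Cnot3 in 4 of 5 and 5 of 5, and Cnot6 exceeded Cnot1 in 4 of 5 and 4 of 5. Zfp36l2 was lowest throughout. Over coding transcripts alone the order was Btg4, Cnot8, Cnot7, Cnot2, Pan2, Cnot3, Cnot6l, Cnot6, Cnot1 and Zfp36l2. There Cnot8 exceeded Cnot7 in 9 of 10 libraries and Cnot3 exceeded Cnot6l in 9 of 10. The 10 genes together summed to 11908 ± 2410.0 TPM with TubA and 12344 ± 2154 TPM in control, and Btg4 made up 83.3 ± 3.83% of that sum with TubA and 83.4 ± 4.17% in control.

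Over the 10 libraries the genes did not vary as one block. On the log2(TPM + 1) scale the pair most alike was Btg4 and Cnot6l, with Pearson's r = 0.92, followed by Cnot1 and Cnot7 with r = 0.74. The pair least alike was Cnot2 and Cnot6l, with r = -0.62, and Btg4 with Cnot7 gave r = -0.11. Among 5839 named genes that averaged 10 TPM or more, those most like Btg4 were Socs1 (r = 0.95), Mfap2 (r = 0.95) and Ipo8 (r = 0.94). Those most like Cnot7 were Phip (r = 0.95), Palb2 (r = 0.95) and Blm (r = 0.95). All values come from the same 10 libraries, which share their scaling and the 2 sets, so these correlations are descriptions only.

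Within genes, 32 transcripts of the 10 genes had a mean of at least 1 TPM, of which 15 were higher and 17 lower with TubA. Of these, 0 passed an adjusted p under 0.05 by limma (0.00458% of all 21838 transcripts tested did), and 0 had groups that did not overlap (0.467% did). At an unadjusted p under 0.05 there was 1, against 3.15% of all transcripts tested. It was Pan2-203, one of 2 near-identical coding forms of Pan2. Pan2-201 holds 27 coding bases that Pan2-203 lacks, 9 codons on GRCm38 chr10:128315487-128315513, plus strand, and it starts further upstream. The 27 bases are in capitals between 12 coding bases on either side.
Pan2-201: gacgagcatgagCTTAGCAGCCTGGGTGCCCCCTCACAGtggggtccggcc
The split between the 2 forms rests on reads that reach this stretch or the first exon.

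Pan2-203 stood at 11.2, 1.56, 9.59, 8.64 and 5.40 TPM in TubA replicates 1 to 5, against 2.75, 28.5, 35.6, 21.6 and 42.0 TPM in control replicates 1 to 5. In 4 of 5 control oocytes it was above every TubA oocyte, and control replicate 1 was among the lowest. Pan2-201 stood at 50.4, 51.1, 51.3, 36.6 and 61.8 TPM in TubA replicates 1 to 5, against 50.6, 23.5, 52.8, 32.9 and 14.5 TPM in control replicates 1 to 5. As a share of both forms, Pan2-203 made up 12.8 ± 6.998% with TubA and 42.8 ± 25.3% in control. The log2 difference of Pan2-203 was -1.52 with a 95% interval from -2.95 to -0.085 (limma, unadjusted p = 0.040, adjusted p = 0.999998 over all transcripts), and that of Pan2-201 was 0.64 with an interval from -0.088 to 1.37 (limma, unadjusted p = 0.079). A test of unequal change between a gene's transcripts, limma's diffSplice F test, gave Pan2 an unadjusted p of 0.011 and an adjusted p of 0.85 over 5543 genes. None of the 9 genes with more than 1 transcript tested passed it, against 0.018% of all genes, and Pan2 was the 1 gene at an unadjusted p under 0.05, against 4.1% of all genes. Over 16 alternative settings the adjusted p for Pan2 ran from 0.063, without control replicate 1, to 1. The difference between the forms is therefore not a call, and its size rests on a control group spread from 5.15% to 74.3%.

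**Figure D3:**
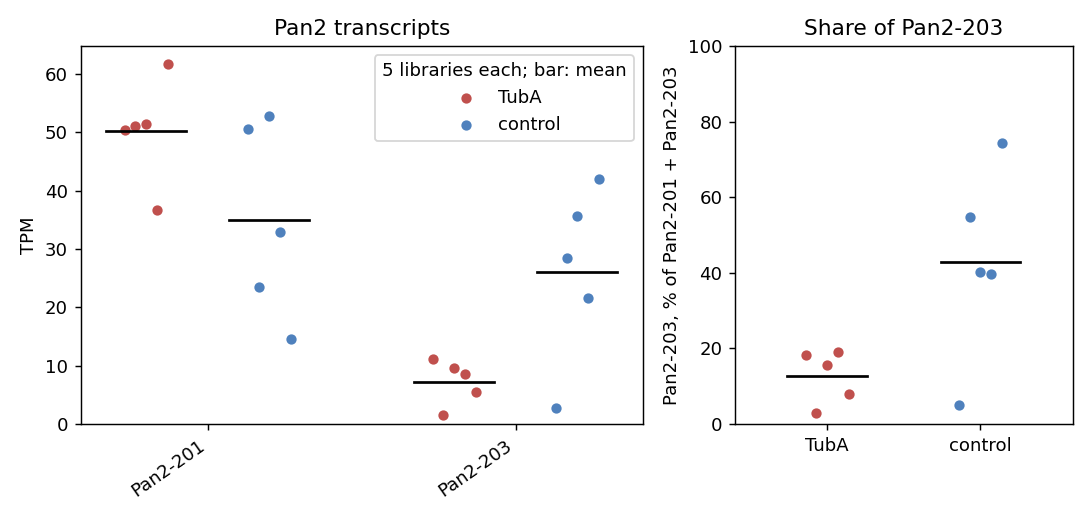
Left, TPM of Pan2-201 and Pan2-203 in every library; right, Pan2-203 as a percentage of both forms; TubA left of control, points are single-oocyte libraries and bars are means (n = 5 each). The TubA share lies between 2.97% and 19.1%, and the control share between 5.15% and 74.3%, with 1 control library inside the TubA range.

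Cnot7 was split over 9 transcripts of at least 1 TPM, more than any other of the genes. The coding form Cnot7-203 (7 exons, 285 codons) averaged 295 ± 79.0 TPM with TubA and 315 ± 55.1 TPM in control. Cnot7-206 lacks an exon of 111 bases, which removes 37 codons and leaves the frame intact. The exon lies on GRCm38 chr8:40495805-40495915, minus strand, and is in capitals between 12 coding bases on either side.
Cnot7-203: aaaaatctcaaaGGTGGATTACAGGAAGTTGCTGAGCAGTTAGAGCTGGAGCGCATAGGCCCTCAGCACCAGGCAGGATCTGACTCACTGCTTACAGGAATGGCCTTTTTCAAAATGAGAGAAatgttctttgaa
The form without it was no minor one: Cnot7-206 stood at 158, 164, 178, 127.6 and 141 TPM in TubA replicates 1 to 5, against 224, 176, 185, 199.7 and 125 TPM in control replicates 1 to 5. The groups overlapped, with a log2 difference of -0.22 and a 95% interval from -0.63 to 0.18 (limma, unadjusted p = 0.25). It made up 34.5 ± 5.82% of the 4 coding Cnot7 transcripts with TubA and 36.3 ± 6.497% in control. Cnot7-206 also starts elsewhere, at chr8:40511718 against chr8:40515847 for Cnot7-203. TPM cannot say which of these features the reads followed, so the share does not measure loss of the exon alone. Cnot7-201, with 7 exons and a start at chr8:40511754, averaged 2.76 ± 2.45 TPM with TubA and 3.24 ± 1.31 TPM in control.

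The rest of the Cnot7 signal lay on transcripts annotated as not coding. The highest was Cnot7-204, an entry of 312 bases and 2 exons, at 328 ± 135 TPM with TubA and 311 ± 128 TPM in control. The retained-intron transcript Cnot7-205 averaged 188 ± 82.3 TPM with TubA and 174 ± 114 TPM in control. Coding transcripts held 44.9 ± 9.66% of the gene's TPM with TubA and 49.1 ± 7.97% in control, whereas by TPM multiplied by length, which is closer to a share of reads, they held 78.9 ± 6.31% with TubA and 82.1 ± 5.39% in control. Counting coding transcripts alone, Cnot7 stood at 455 ± 85.7 TPM with TubA and 502 ± 68.4 TPM in control, so its level depends on which entries are counted, and so does its rank beside Cnot8. On the opposite strand Cnot7 overlaps Zdhhc2, listed at a mean of 0.759 TPM, and Vps37a, listed at 14.4 TPM.

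Cnot6l was carried by Cnot6l-201, which had 126, 209.9, 230.4, 134 and 166 TPM in TubA replicates 1 to 5 and 211, 189, 107, 168 and 205 TPM in control replicates 1 to 5. The groups overlapped, with a log2 difference of -0.024 and a 95% interval from -0.55 to 0.50 (limma, unadjusted p = 0.92). Cnot6l-201 is annotated as a target of nonsense-mediated decay, with an open reading frame of 46 codons. It lacks 4 bases (GRCm38 chr5:96131242-96131245, minus strand) that the coding form Cnot6l-210 has. Cnot6l-210 holds 550 codons and a 3′ untranslated region of 6847 bases, against 3314 bases in all for Cnot6l-201. The 2 therefore differ in their 3′ ends, shown above, as well as in these 4 bases, and TPM cannot say which of the features the reads followed. Cnot6l-201 made up 90.6 ± 0.702% of the pair with TubA and 90.2 ± 1.46% in control, a share that hardly varied between oocytes. Another coding form, Cnot6l-203, averaged 1.17 ± 0.928 TPM with TubA, and in control it was at 44.9 TPM in replicate 3 and at most 2.19 TPM in the other replicates.

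**Figure D4:**
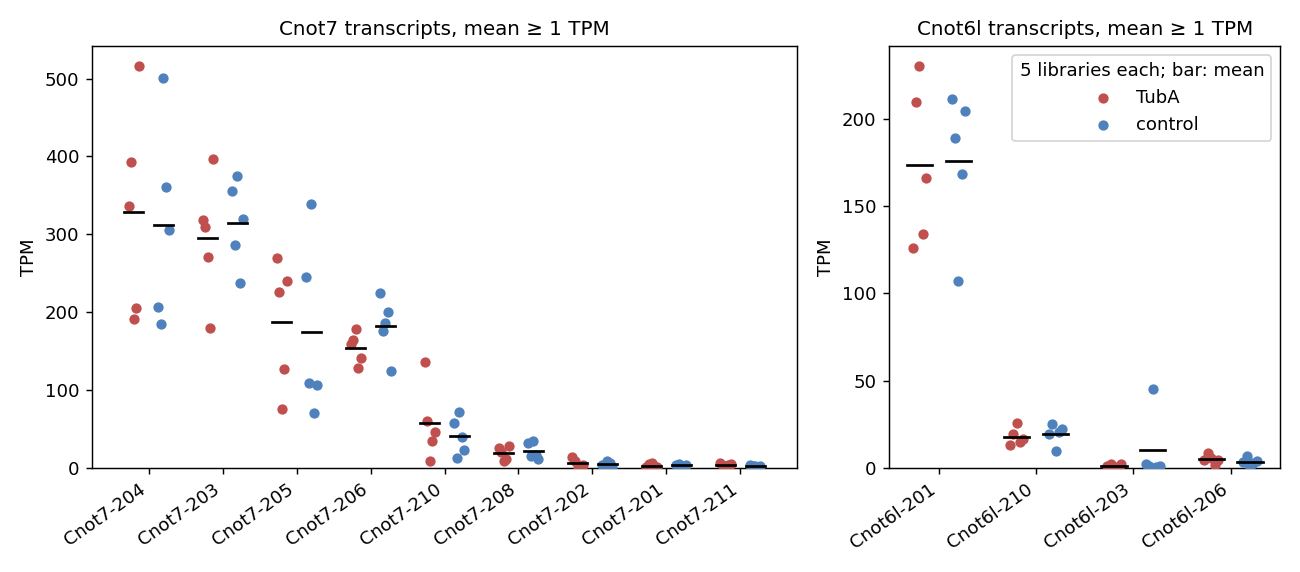
TPM of the transcripts of Cnot7 and Cnot6l with a mean of at least 1 TPM in every library, TubA left of control; points are single-oocyte libraries and bars are means (n = 5 each). Groups overlap for every transcript, Cnot7 is divided over many entries, and Cnot6l is carried by Cnot6l-201 at 173 ± 45.9 TPM with TubA and 176 ± 42.0 TPM in control.

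The other members were split over fewer transcripts of at least 1 TPM than Cnot7. Cnot8-201 held 99.6 ± 0.353% of Cnot8 with TubA and 99.6 ± 0.224% in control. Cnot2 was divided between Cnot2-213 (540 codons) and Cnot2-202 (455 codons), the first making up 58.7 ± 13.01% of the pair with TubA and 50.5 ± 17.4% in control. Cnot3-201, the form with the whole reading frame of 751 codons, averaged 21.7 ± 7.56 TPM with TubA and 21.99 ± 4.74 TPM in control, and was lowest in TubA replicate 1 at 8.77 TPM. The partial entry Cnot3-207 averaged 13.7 ± 2.36 TPM with TubA and 11.7 ± 0.781 TPM in control. The retained-intron transcript Cnot3-205 averaged 6.16 ± 2.22 TPM with TubA and 5.65 ± 0.269 TPM in control. Cnot6-201, with a short 3′ untranslated region of 480 bases, averaged 14.9 ± 3.82 TPM with TubA and 16.0 ± 6.31 TPM in control. Cnot6-203, with one of 3690 bases, averaged 1.93 ± 0.750 TPM with TubA and 1.62 ± 0.511 TPM in control.

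The wider pathway was described through 52 other genes in 7 lists, of which 47 reached a mean of 1 TPM. Of these 26 were higher and 21 lower with TubA, with a median log2 difference of 0.011. By limma 0 were called at an adjusted p under 0.05, against 0.00857% of all genes tested. At an unadjusted p under 0.05 there was 1 gene, against 2.51% of all genes tested. That gene was Pabpc1, a poly(A) binding protein, at 3.69 ± 1.34 TPM with TubA and 7.40 ± 2.91 TPM in control (limma, log2 difference -0.78, unadjusted p = 0.041, adjusted p = 0.9999). The 2 most abundant poly(A) binding genes, Pabpc1l, the form of oocytes, and Pabpc4, stood at 273 ± 196 and 178 ± 39.0 TPM with TubA and at 207 ± 94.8 and 137 ± 26.1 TPM in control. Of the 4 other CCR4-NOT subunits 3 were higher and 1 lower. Cnot11, a subunit of the module at the front end of CNOT1, stood at 346 ± 38.1 TPM with TubA and 302 ± 129 TPM in control, where replicate 3 was at 74.1 TPM. Cnot4, a ubiquitin ligase, stood at 62.8 ± 12.99 TPM with TubA and 64.9 ± 4.98 TPM in control.

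Of the 5 other BTG and TOB genes, the family of BTG4, 3 were higher and 2 lower. Tob2 and Btg2 led them, at 83.4 ± 23.5 and 21.1 ± 6.62 TPM with TubA and 108 ± 14.7 and 18.4 ± 4.26 TPM in control, so Btg4 was far above every relative. Of 7 other deadenylase genes 3 were higher and 4 lower, led by Angel2 at 612 ± 104 TPM with TubA and 606 ± 94.0 TPM in control, and by Noct at 318 ± 46.5 TPM with TubA and 347 ± 100.4 TPM in control. Among the 12 other recruiters 9 were tested, 3 higher and 6 lower with a median of -0.28. The m6A reader Ythdf2 stood at 96.1 ± 17.8 TPM with TubA and 121 ± 40.8 TPM in control, and Tnrc6b, the partner of Argonaute, at 59.4 ± 6.79 TPM with TubA and 66.5 ± 10.7 TPM in control. Of 15 decapping and decay genes tested 11 were higher and 4 lower, with the decapping factor Dcp1a at 670 ± 144 TPM with TubA and 765 ± 350.2 TPM in control and Lsm5, a subunit of the ring that binds shortened tails, at 237 ± 114 TPM with TubA and 162 ± 51.5 TPM in control. Of the 2 uridylation genes tested, the uridylyl transferase Tut7 stood at 32.8 ± 11.3 TPM with TubA and 41.7 ± 5.98 TPM in control. Dis3l2, which degrades RNA with a uridine tail, stood at 9.29 ± 2.31 TPM with TubA and 7.93 ± 3.05 TPM in control. None of these differences passed the test (limma, adjusted p = 0.9999 for each gene named).

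**Figure D5:**
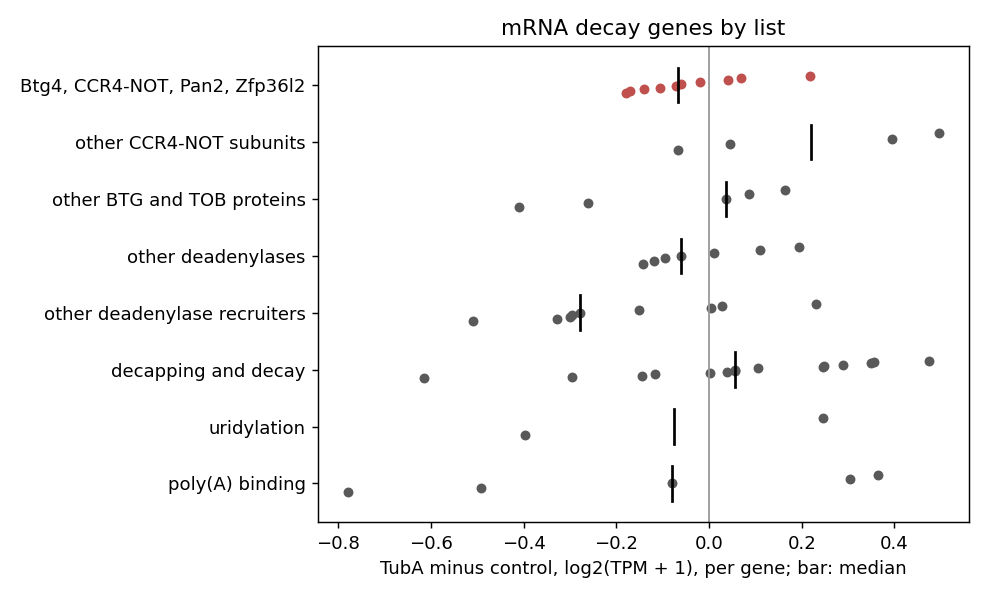
Log2(TPM + 1) difference between TubA and control libraries for each tested gene of the 10 genes described and of the 7 further lists of mRNA decay genes; points are genes and bars are list medians. The 10 genes lie between -0.18 and 0.22, and the other lists between -0.78 and 0.50.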

How the data were processed

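Per the labels, 10 single mouse oocytes were amplified with Smart-seq2 and sequenced on an Illumina HiSeq. The submitters' processing notes name Bowtie 0.12.2 and the build mm10. Which program estimated abundances, with which annotation and strand setting, is not given in the sources used here. Deposited values are TPM per Ensembl transcript, a unit read from the values, which sum to 1000000 in each library.

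Of 115270 transcripts, 113492 matched GENCODE M21 (GRCm38, the same assembly as mm10). The unmatched 1778 held 0.531% to 0.753% of a library's TPM and were left out. Transcripts were summed per gene (Python 3.11.15, pandas 2.3.3, numpy 2.4.6, scipy 1.17.1, matplotlib 3.10.9). Groups came from the sample titles. Genes, and separately transcripts, with a mean of at least 1 TPM were tested with limma 3.58.1 (R 4.3.3, trend and robust) on log2(TPM + 1), pseudocount 1, with Benjamini-Hochberg adjustment at 0.05 over everything tested. Transcript usage was tested with diffSplice, and 3 within-library ratios with an exact permutation test. No pair of files was identical.

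All 10 members are named, with the main ones of their transcripts of at least 1 TPM. Also named are the 3 genes most like Btg4 and Cnot7, the 2 most abundant of each further list and any past the test. Pabpc1 was named after its value was seen. The members and lists were chosen with earlier results of these data known. Alternatives were another pseudocount, filter or scaling, the replicate number as a block, the library set as a term, leaving out each library and, added after seeing the data, each library set alone and coding transcripts only (ratios too). The library sets were found by complete-linkage clustering of the same values and are not a label of the submitters.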

Additional observations from a re-analysis of the deposited data

Results flagged for a closer look

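Of 88 sets of 5 library values checked for a single value far from the other 4 of its group, 5 were singled out. The threshold is one that picks about 5% of sets when values are normal and independent. Values here need not be normal, and gene sums share values with their transcripts. Whether 5 in 88 exceeds chance was therefore not tested. Pan2 was at 90.8 TPM in control replicate 3, where the next control library was at 58.1 TPM. Cnot6l-203 was at 44.9 TPM in the same library, against at most 2.19 TPM in the other control libraries. Cnot2-202 was at 34.4 TPM in TubA replicate 4, with the next TubA library at 21.04 TPM. Cnot2-206, a non-coding entry, was at 3.47 TPM in control replicate 5, with the next at 0.442 TPM. The ratio of Cnot6l to Cnot6 was 25.2 in control replicate 5, with the next at 13.1.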

How the results depend on the processing

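None of the 10 genes was called under any of the 19 alternatives it was tested in (18 for Zfp36l2, which falls under a mean of 5 TPM), with a lowest adjusted p of 0.99 by limma. Of all genes, the count called was 1 in the chosen setting, 0 with a mean of at least 5 TPM, 0 with the replicate number as a block, 0 with coding transcripts only and 1 without any 1 library. The count of genes at an unadjusted p under 0.05 was 293, 166 with a mean of at least 5 TPM, 549 with no filter and 205 to 447 when leaving out each library. Of transcripts 1 was called, 0 with a mean of at least 5 TPM, 0 with the replicate block and 0 to 2 without a library. Of genes for transcript usage 1 was called, 2 with a pseudocount of 0.1, 16 with no filter, 0 with the replicate block and 0 to 12 without a library. The sign turned for Btg4 within the set with TubA replicates 3 to 5 (0.044), where Cnot8 (0.080), Zfp36l2 (0.16) and Pan2 (0.033) turned too. For Cnot7 it turned with the set as a term (0.054) and within the other set (0.14), and for Cnot6 with coding transcripts only (-0.0039). With coding transcripts only Cnot7 was at -0.15 and Cnot6l at -0.40, with control replicate 3 the highest library at 55.2 TPM. Zfp36l2 was at -0.46 with a pseudocount of 0.1. Leaving out each library gave ranges of -0.17 to 0.046 for Btg4, -0.12 to 0.49 for Cnot1, -0.16 to 0.19 for Cnot6, -0.22 to -0.0063 for Cnot6l, -0.13 to 0.12 for Cnot7 and -0.13 to 0.067 for Pan2. For the log2 ratios they were -0.28 to 0.093 (Cnot6l to Cnot6), 0.029 to 0.24 (Cnot7 to Cnot8) and -0.26 to 0.13 (Btg4 to Cnot7). Over coding transcripts alone the log2 ratios turned to -0.014 (Cnot7 to Cnot8) and 0.094 (Btg4 to Cnot7), and Cnot6l to Cnot6 was -0.40. The cause of these changes was not tested. Between libraries of the same number r ran from -0.31 to 0.48, over 0.1 in 2 of 5 pairs, and between other pairs from -0.46 to 0.45. These r do not compare the levels as such, whose order over the 10 genes was much the same in both groups. Of the TubA libraries 2 of 5 were most like their own number. With only 5 pairs these values cannot show whether the numbers pair the oocytes. The replicate block cannot change the 3 log2 ratio differences, -0.15, 0.12 and -0.041, because each number occurs once in each group. With it their p was 0.81, 0.69 and 0.94 (exact test over sign changes of the 5 paired differences). Depth is unknown, so the spread between 5 libraries sets the precision.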
